A study of Mus musculus with 12 samples.

Results

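Bone marrow-derived macrophages (BMDMs) given follistatin without any added activin A were compared with untreated BMDMs. The comparison used 6 of the 12 libraries of poly(A) RNA-seq, 3 labelled FST and 3 labelled CTRL, and set libraries with the same replicate number side by side as 3 pairs. It covered 14318 of the 18376 genes in the table, namely those whose normalized counts averaged 5 or more across the 12 libraries. All libraries were from WT C57BL6/J mice, and all cultures had received 50 ng/ml of the macrophage growth factor M-CSF. CTRL cultures had nothing else, FST cultures had 250 ng/ml FST288 (recombinant human follistatin), Act cultures had 50 ng/ml activin A, and Act + FST cultures had both, in each case for 6 days. The labels number the replicates but do not say whether they were separate mice or separate dishes, so every p-value below measures only the spread between these libraries.

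Activin A is a dimer of the protein encoded by Inhba and belongs to the TGF-β superfamily. It binds type II receptors (Acvr2a, Acvr2b), which recruit the type I receptor Acvr1b, and the receptor complex phosphorylates SMAD2 and SMAD3, which enter the nucleus with SMAD4 and change transcription. Follistatin is a secreted glycoprotein that wraps around activin and keeps it from its receptors, and it also binds some other ligands of the superfamily. In macrophages activin A is known for effects on adhesion, matrix remodelling and inflammatory mediators. The question of the comparison is what follistatin alone does to macrophages that receive no activin A from outside.

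Values of single libraries are normalized counts and are given in the order of replicate numbers 1, 2 and 3. The 6 libraries summed to between 5643708 and 5868516 normalized counts. Both groups had the macrophage marker profile that their label states. Adgre1 (F4/80) had 2411, 2163 and 2199 in CTRL and 2233, 2323 and 2088 in FST, and the log2 differences of all 10 macrophage markers lay between -0.10 and 0.05. The markers of monocytes, neutrophils, dendritic cells, B cells, mast cells, erythroid cells and megakaryocytes included no gene with an unadjusted p of at most 0.05, and the 2 T and NK cell genes in the table were too low to be tested. Stromal markers are given with the matrix genes below. Libraries were closer to their same-numbered partner in the other group than to libraries of their own group. The mean over genes of the squared difference divided by the sum of the values was 1.00, 1.29 and 1.16 for CTRL with FST of the same number, against 1.57 to 3.87 between CTRL libraries and 1.68 to 3.05 between FST libraries (genes with a mean of at least 50). A value near 1 is what counting error alone gives in unscaled read counts; these values had been scaled and rounded, so it is a guide only.

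No gene was called between FST and CTRL. With the thresholds set at 2-fold and at an adjusted p (Benjamini-Hochberg) of 0.05, 0 genes were higher and 0 were lower (0% of 14318), and the lowest adjusted p of any gene was 0.33 (limma with replicate number as a block). At an unadjusted p of at most 0.05, 387 genes (2.7%) were higher in FST and 313 (2.19%) were lower, and 21 and 13 of them differed at least 2-fold. Without the block the counts were 165 and 134, and without FST 3 they were 230 and 270. Of the same 14318 genes, 1772 (12.4%) were higher in FST in 3 of 3 pairs and 1631 (11.4%) were lower in 3 of 3 pairs, while for 420 (2.93%) and 374 (2.61%) the 3 FST values lay wholly above or below the 3 CTRL values. By the same limma model, Act versus CTRL gave 403 genes higher (2.81%) and 499 lower (3.49%), and Act versus Act + FST gave 426 higher (2.98%) and 500 lower (3.49%). The size of what could be missed was small for most genes. The 95% interval of the FST to CTRL ratio lay within 2-fold in either direction for 12973 genes (90.6%), and within 1.5-fold for 10951 (76.5%). In bulk RNA, fewer cells of a kind and less RNA per cell cannot be told apart.

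The genes with the largest negative differences included Olfml3, Cx3cr1, Pmepa1, Mmp14 and Fn1. They were taken as the 10 most negative log2 differences among genes with a mean of at least 50 over the 12 libraries, a lower value in FST in 3 of 3 pairs and an unadjusted p of at most 0.05, so their direction in FST versus CTRL was fixed by that choice and is given as a description. They were Olfml3, Cxcl14, Cx3cr1, Pmepa1, Pald1, Runx3, Mmp2, Fn1, Spsb1 and Mmp14. All 10 were higher in Act than in Act + FST at an adjusted p of at most 0.05 (over all genes tested, 17.1% were higher and 15.4% lower by that criterion). The log2 differences of that comparison share no library with those of FST versus CTRL, but the p-values share each gene's estimate of spread. All 10 were also higher in Act than in CTRL at that threshold, in a comparison that uses the same CTRL libraries. The choice favoured such genes, because 7 of the 10 had a mean under 50 in the 6 libraries of FST and CTRL and passed only through the libraries given activin A. Of the 10 most negative differences among genes with a mean of at least 50 in those 6 libraries (Cx3cr1, Fn1, Dcstamp, Mmp14, Gimap6, Ubxn11, Atp2b4, Pxdc1, Ptgfrn and Slc13a3), 6 were higher and 1 was lower in Act than in Act + FST by the same criterion. The adjusted p-values of the first 10 in FST versus CTRL were between 0.373 and 0.902.

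**Figure D1:**
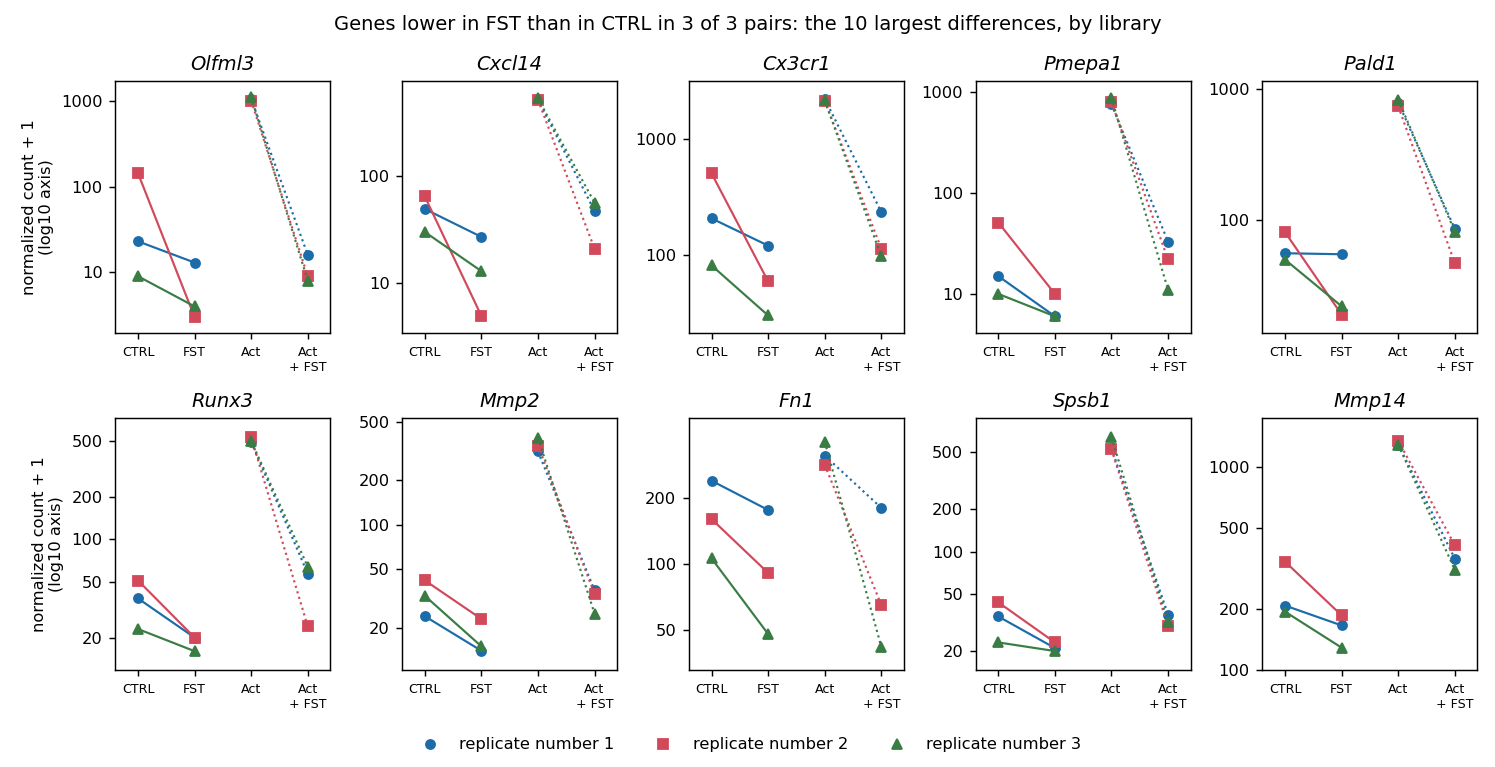
Normalized counts plus 1 (log10 axis) of the 10 genes with the largest negative difference in FST versus CTRL, in the 12 libraries by group. Points are single libraries, colours and shapes give the replicate number, solid lines join CTRL to FST and dotted lines join Act to Act + FST of the same number; all solid lines slope down, and CTRL 2 is the highest of the 6 CTRL and FST libraries for 9 of the 10 genes.

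Olfml3, a secreted olfactomedin-domain protein that is a marker of homeostatic microglia, had 22, 142 and 8 in CTRL and 12, 2 and 3 in FST. In Act it had 1055, 1008 and 1104, and in Act + FST 15, 8 and 7. The FST values were below those of the same-numbered CTRL libraries, but CTRL 3 was below FST 1, and CTRL 2 alone stood high. The log2 difference was -2.52 ± 0.68 (SE, 3 pairs), and it was -1.23 without CTRL 2. Cx3cr1, the fractalkine receptor of monocytes and microglia, had 205, 502 and 80 in CTRL and 119, 58 and 29 in FST, against 2207, 2123 and 2142 in Act and 233, 112 and 96 in Act + FST. Its log2 difference was -1.77 ± 0.41, or -1.06 without CTRL 2. Here too the groups overlapped, since FST 1 exceeded CTRL 3.

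The chemokine gene Cxcl14 had 48, 63 and 29 in CTRL and 26, 4 and 12 in FST, with no overlap, and a log2 difference of -1.91 ± 0.43. Runx3, a transcription factor that acts with SMADs in several immune cells, had 37, 50 and 22 in CTRL and 19, 19 and 15 in FST, again with no overlap and with a log2 difference of -0.93 ± 0.32. Pald1, which encodes the phosphatase-domain protein paladin, had 55, 80 and 49 in CTRL and 54, 18 and 21 in FST, so that pair 1 hardly differed (log2 difference -1.10 ± 0.29 over the 3 pairs). Without CTRL 2 the differences of these 3 genes were -1.31, -0.55 and -0.69, and those of Pald1 and Runx3 were thus smaller by more than 1.5 times.

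Of the genes that SMAD signalling induces and that feed back on it, Pmepa1 differed most. It encodes a membrane protein that holds back TGF-β signalling. Its values were 14, 50 and 9 in CTRL and 5, 9 and 5 in FST, against 756, 792 and 871 in Act (log2 difference of FST and CTRL -1.47 ± 0.39, and -0.89 without CTRL 2). Spsb1, a SOCS-box protein that targets the TGF-β type II receptor, had 34, 43 and 22 in CTRL and 20, 22 and 19 in FST (-0.62 ± 0.19, and -0.40 without CTRL 2). Skil, the SMAD co-repressor SnoN, had 646, 549 and 574 in CTRL and 571, 479 and 421 in FST, a log2 difference of -0.27 ± 0.07 (adjusted p = 0.719). In this list of 15 feedback and target genes, 13 were tested and all 13 were higher in Act than in Act + FST at an adjusted p of at most 0.05. In FST versus CTRL, 6 were lower in 3 of 3 pairs and 0 were higher, 5 were lower at an unadjusted p of at most 0.05 (Pmepa1, Skil, Spsb1, Nedd9 and Tgfbi), and the list's median log2 difference was -0.10, beside 0.002 over all genes tested. Without CTRL 2 the count was 3 and the median -0.06. Over all genes tested, 17.1% were higher in Act than in Act + FST at that adjusted p. In FST versus CTRL, 11.4% were lower in 3 of 3 pairs and 2.19% at that unadjusted p.

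Among the genes that the study named were Mmp14, Mmp2 and Fn1, which act on or form the extracellular matrix and had lower values in FST. Mmp14, a membrane-bound metalloproteinase that activates the gelatinase MMP2, had 207, 341 and 193 in CTRL and 165, 185 and 128 in FST. All 3 FST values lay below all 3 CTRL values, and the log2 difference was -0.60 ± 0.11 (95% interval -0.83 to -0.37, adjusted p = 0.373). Mmp2 itself had 23, 41 and 32 in CTRL and 13, 22 and 14 in FST (-0.93 ± 0.20, adjusted p = 0.607), also without overlap. Fn1, which encodes fibronectin, had 238, 159 and 105 in CTRL and 175, 90 and 47 in FST (-0.80 ± 0.30, adjusted p = 0.902), and within each replicate number FST was the lower value although the groups overlapped. Act values of Mmp14 were 1290, 1347 and 1288, those of Mmp2 were 313, 343 and 388, and those of Fn1 were 310, 282 and 359. Of the 17 genes that the study named, which were chosen in part on these libraries, 6 were lower in FST in 3 of 3 pairs and 0 were higher in 3 of 3. At an unadjusted p of at most 0.05, 5 were lower (the integrin subunit Itgav and the growth factor Pdgfb beside the 3 above), which became 3 without CTRL 2. Over all genes tested, 11.4% were lower in 3 of 3 pairs and 2.19% at that unadjusted p. The gelatinase Mmp9 (311, 261 and 113 in CTRL, 233, 245 and 136 in FST) and the protease inhibitor Timp1 (18, 15 and 11 in CTRL, 22, 15 and 13 in FST) had differences of -0.08 ± 0.20 and 0.17 ± 0.26. The chemokine receptors Ccr2 (633, 508 and 272 in CTRL, 678, 443 and 294 in FST) and Cxcr4 (690, 663 and 667 in CTRL, 652, 694 and 602 in FST) had log2 differences of 0.00 ± 0.17 and -0.05 ± 0.04. Stromal cell markers summed to 83, 44 and 41 in CTRL and 153, 62 and 36 in FST (9 genes in the table). The 4 that were tested had a median log2 difference of 0.55, and pair medians of 0.84, 0.73 and 0.16. Of these, 2 were higher in 3 of 3 pairs and Col1a2, with 24, 0 and 0 in CTRL and 58, 1 and 4 in FST, had an unadjusted p of at most 0.05. The part of such cells in the matrix genes was not tested.

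The lowest unadjusted p-values belonged to abundant genes with small differences. They were Mtus1, Ppp1r9a, Mmp14, Enc1 and Treml2. Mtus1, a microtubule-associated protein, had 667, 621 and 644 in CTRL and 557, 502 and 435 in FST (log2 difference -0.38 ± 0.06, adjusted p = 0.33). Enc1, an actin-binding kelch protein, had 980, 974 and 1009 in CTRL and 860, 828 and 778 in FST (-0.27 ± 0.05). Ppp1r9a, the actin-binding protein neurabin, had 424, 450 and 391 in CTRL and 366, 363 and 344 in FST (-0.23 ± 0.04). For all 3 the groups did not overlap, and all 3 were higher in Act than in Act + FST, by 1.03, 1.19 and 0.53 on the log2 scale. Treml2, a receptor of the TREM family, had the opposite order. It had 193, 184 and 178 in CTRL and 291, 212 and 245 in FST (0.42 ± 0.08, adjusted p = 0.555), and 354, 331 and 316 in Act and 354, 267 and 349 in Act + FST, so that the 3 CTRL libraries were the lowest of all 12.

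Genes that activin A moved leaned in the opposite direction in FST versus CTRL, as a majority and not gene by gene. Here the genes called in Act versus Act + FST stood for the activin A genes, because none of those 6 libraries enters the log2 differences of FST and CTRL. The spread of each gene was estimated from all 12 libraries, so the p-values of both comparisons share it. Relative to each gene's mean over the FST and CTRL libraries, the median of the 426 genes higher in Act was 0.19, 0.13 and -0.04 (log2) in CTRL, 0.14, -0.17 and -0.17 in FST, and between 1.495 and 1.554 in Act. FST 1 was thus above CTRL 3, and the difference appeared within numbers rather than as a separation of the groups. Of the 426 genes higher in Act, 326 (76.5%) were lower in FST than in CTRL and 97 were higher, beside 48.6% of all genes tested. Their median log2 difference was -0.15 (quartiles -0.34 and -0.01), and within pairs 1, 2 and 3 the medians were -0.06, -0.29 and -0.13. In 3 of 3 pairs 117 (27.5%) were lower and 9 (2.11%) were higher, and at an unadjusted p of at most 0.05 there were 62 lower (14.6%) and 5 higher (1.17%). The 62 became 32 without the replicate block, 41 without CTRL 2, and 34 without CTRL 2 and FST 2 together, where the median was -0.07. For 29 (6.81%) the FST values lay wholly below the CTRL values. Over all genes tested, 11.4% were lower in 3 of 3 pairs, 2.19% were lower at that unadjusted p, and 2.61% lay wholly below. Of these 426 genes, 53 had a mean under 5 in the 6 libraries of FST and CTRL, having passed the filter through their high values in Act; the other 373 had a median of -0.15 as well.

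**Figure D2:**
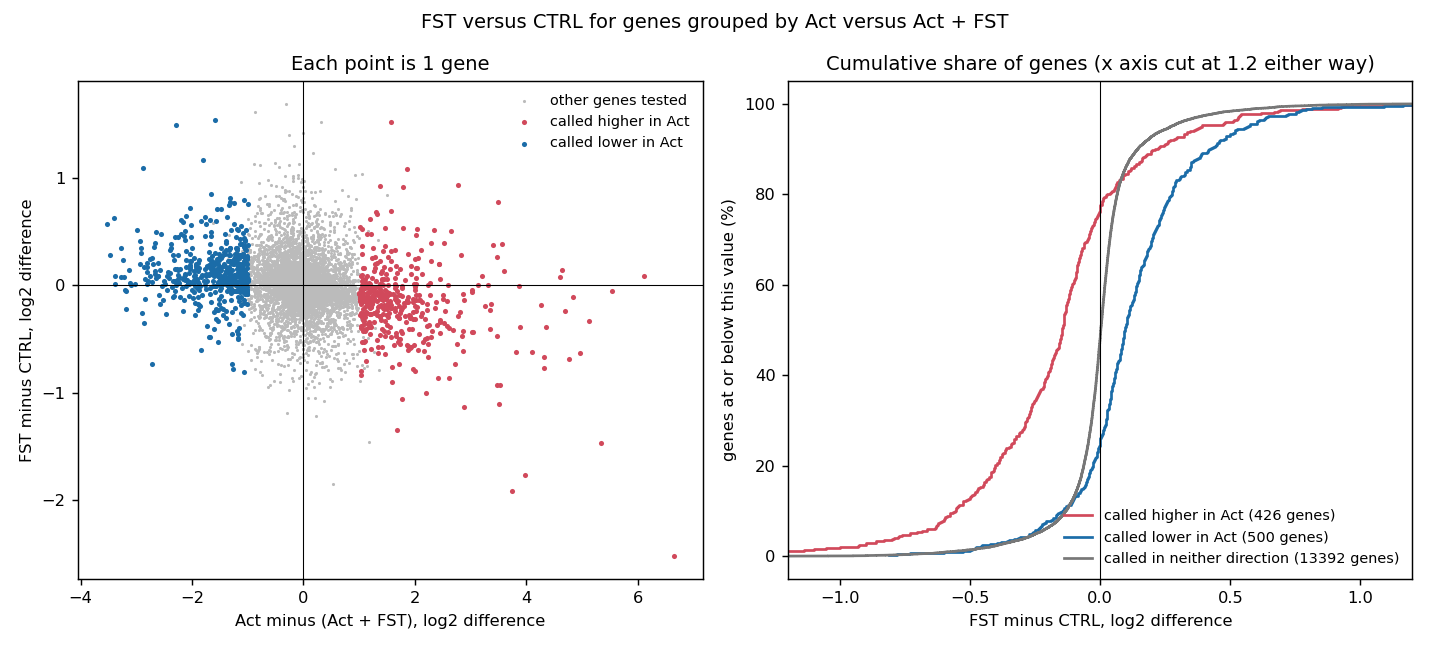
Left, the log2 difference of FST and CTRL (vertical axis) against that of Act and Act + FST (horizontal axis), each point 1 of the 14318 genes tested; right, the cumulative percentage of genes by their log2 difference of FST and CTRL. The 426 genes called higher in Act (red) lie mostly below 0 with a median of -0.15, the 500 called lower in Act (blue) mostly above 0 with a median of 0.09, and the remaining 13392 (grey) are centred at 0.002.

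Higher floors left fewer genes on the other side. With a mean of at least 50 over the 12 libraries, a floor that genes can pass through Act alone, there were 175 genes higher in Act, of which 162 (92.6%) were lower in FST than in CTRL. With that floor set on the 6 libraries of FST and CTRL there were 130, of which 123 (94.6%) were lower, 60 (46.2%) in 3 of 3 pairs, with 0 higher in 3 of 3 pairs and a median of -0.14. Over all genes past the same floor, 48.1% were lower and 11.7% were lower in 3 of 3 pairs.

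The genes lower in Act leaned the other way, with less regularity between pairs. Of these 500 genes, 373 (74.6%) were higher in FST than in CTRL and 127 were lower, and the median log2 difference was 0.09. The pair medians were 0.14, -0.07 and 0.25, so pair 2 had the opposite sign, and the median was 0.18 without CTRL 2, 0.16 without FST 2, 0.045 without CTRL 3 and 0.03 without both libraries numbered 3. In 3 of 3 pairs 107 (21.4%) were higher and 15 (3%) were lower, beside 12.4% and 11.4% of all genes tested. Ctnnd2, which encodes the adhesion-junction protein delta-catenin, was also among the 10 largest positive differences in FST versus CTRL, with 153, 100 and 66 in CTRL and 235, 123 and 131 in FST, against 15, 11 and 13 in Act. Its groups overlapped, since CTRL 1 exceeded FST 2 and FST 3 (log2 difference of FST and CTRL 0.63 ± 0.17, adjusted p = 0.719). Fbln5, the elastic fibre protein fibulin, had 131, 136 and 147 in CTRL and 179, 153 and 225 in FST, and 22, 21 and 13 in Act, with FST wholly above CTRL (0.41 ± 0.19, and 0.24 without FST 3). The other 8 of the 10 genes lowest in Act relative to Act + FST (Gprc5b, Tox2, Pimreg, Tslp, Kntc1, Gm42517, Gm10419 and Osbp2) had log2 differences of FST and CTRL between -0.05 and 0.28. Of the 10 genes highest in Act, 8 are described above. The 2 remaining were Tmem119, another microglial marker (11, 31 and 6 in CTRL, 9, 5 and 11 in FST), and Cav1, the caveolae protein caveolin (15, 17 and 7 in CTRL, 18, 6 and 16 in FST), and neither kept 1 direction over the pairs.

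Read from the other side, genes that differed in 3 of 3 pairs were partly activin A genes and partly not. Of the 1631 genes lower in FST in 3 of 3 pairs, 117 (7.17%) were called higher in Act than in Act + FST and 15 (0.92%) lower. Of the 1772 genes higher in 3 of 3 pairs, 107 (6.04%) were called lower in Act and 9 (0.508%) higher. By adjusted p alone, 528 of the 1631 (32.4%) were higher in Act and 108 (6.62%) lower, and of the 1772 there were 554 (31.3%) lower and 166 (9.37%) higher. Over all genes tested, 2.98% were called higher and 3.49% lower in Act, and by adjusted p alone 17.1% and 15.4%. Genes with a mean of at least 50 in the 6 libraries and an unadjusted p of at most 0.05 were counted by the same adjusted p. Of 204 such genes lower in FST, 125 (61.3%) were higher in Act, 6 (2.94%) were lower and 73 passed in neither direction. Of 259 higher in FST, 131 (50.6%) were lower in Act, 16 (6.18%) were higher and 112 passed in neither direction. Over all 10599 genes past that floor, 19.1% were higher and 17.1% lower in Act. Both p-values rest on the same estimate of spread for each gene, taken from the 12 libraries. A gene of small spread thus tends to pass both, and the excess over these shares can in part come from that choice. With the genes called in Act versus CTRL in place of Act versus Act + FST, a list that shares the CTRL libraries, the median log2 difference of FST and CTRL was -0.09 for the 403 higher genes and 0.05 for the 499 lower ones, with 84 (20.8%) lower and 20 higher in 3 of 3 pairs among the first, and 81 (16.2%) higher and 35 lower among the second. The pair medians of the 403 were 0, -0.26 and 0, so the median leaned on pair 2.

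The genes with the largest positive differences included 3 of the interferon list (Oasl1, Ifi44 and Oas3) and others of families that interferon is known to induce (Ifi213, Ifi208, Oas1g and Slfn1). Chosen like the lower ones, the 10 were Ifi213, Oasl1, Slfn1, Ifi44, Cd69, Oas1g, Ifi208, Ctnnd2, Nedd4 and Oas3, with adjusted p-values between 0.626 and 1. Type I interferons act on many of their target genes through a short promoter sequence, the interferon-stimulated response element. The 250 bases before the start of Ifi213, Ifi208, Oas3 and Oas1g hold the element's core, and those of the first 3 are shown because several of the higher genes share it. The core was searched on both strands as GAAANNGAAA, where N is any base, in RefSeq promoter windows (GRCm38.p6) that run from 250 bases before to 50 after each gene's start. Of 32841 windows 3.44% hold it, as do windows of 1079 of 27018 genes (3.99%), of 4 of the 9 genes among the 10 that have a window, and of 13 of the 21 genes of the interferon list that have one (61.9%). In the 3 sequences, each written along its gene's strand, capitals mark the match.
Ifi213: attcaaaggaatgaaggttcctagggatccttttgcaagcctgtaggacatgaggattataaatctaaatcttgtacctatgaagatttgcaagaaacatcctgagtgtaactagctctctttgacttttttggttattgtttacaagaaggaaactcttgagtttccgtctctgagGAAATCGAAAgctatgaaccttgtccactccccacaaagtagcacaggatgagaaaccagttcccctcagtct
Ifi208: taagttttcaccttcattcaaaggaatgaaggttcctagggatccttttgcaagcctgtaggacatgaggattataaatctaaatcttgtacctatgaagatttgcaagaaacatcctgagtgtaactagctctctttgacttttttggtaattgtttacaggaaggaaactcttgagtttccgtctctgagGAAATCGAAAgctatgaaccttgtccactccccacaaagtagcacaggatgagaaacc
Oas3: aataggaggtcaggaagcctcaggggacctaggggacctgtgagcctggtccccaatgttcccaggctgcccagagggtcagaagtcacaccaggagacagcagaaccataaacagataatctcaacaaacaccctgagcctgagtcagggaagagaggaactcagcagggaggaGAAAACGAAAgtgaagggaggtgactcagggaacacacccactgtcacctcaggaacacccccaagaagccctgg
The Ifi213 sequence is chr1:173599273-173599522 on the minus strand, that of Ifi208 is chr1:173673415-173673664 on the plus strand, and that of Oas3 is chr5:120777660-120777909 on the minus strand. The match begins 73, 58 and 75 bases before the start. The Ifi213 and Ifi208 sequences are nearly the same apart from a shift, so their matches are not independent cases of the element. Binding at these sites was not measured. The SMAD box CAGACA, searched the same way, is in windows of 23.6% of genes, of 1 of the 7 genes with a window among the 10 lower genes (Runx3), and of 3 of 9 in the feedback and target list.

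**Figure D3:**
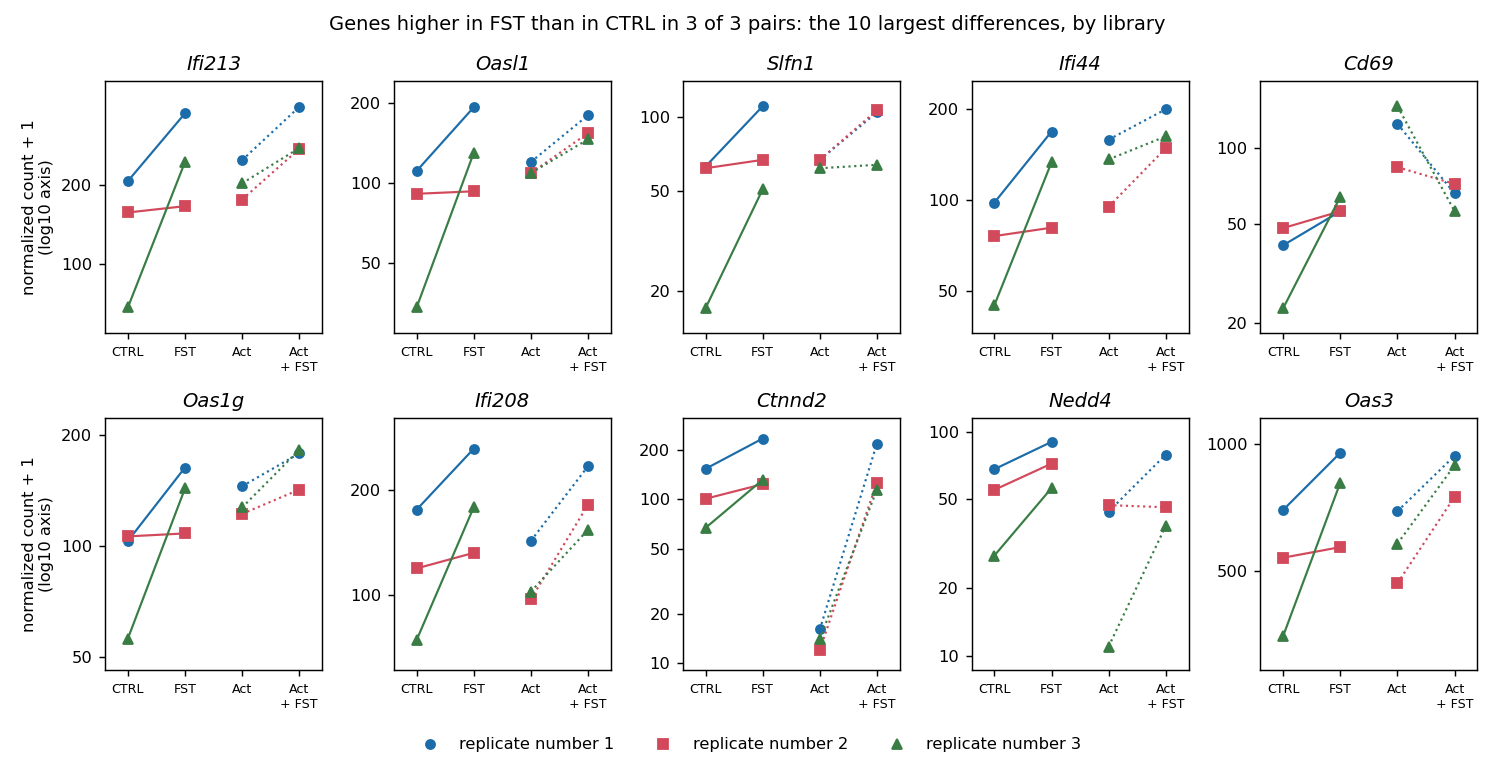
Normalized counts plus 1 (log10 axis) of the 10 genes with the largest positive difference in FST versus CTRL, in the 12 libraries by group, with symbols and lines as in the plot of the lower genes. CTRL 3 is the lowest of the 6 CTRL and FST libraries for all 10 genes, and pair 2 (squares) is nearly flat for most of them.

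Ifi213 and Ifi208 belong to the PYHIN family, which includes sensors of DNA. Ifi213 had 206, 156 and 67 in CTRL and 375, 165 and 244 in FST, a log2 difference of 0.93 ± 0.23. Ifi208 had 175, 118 and 73 in CTRL and 263, 131 and 178 in FST (0.67 ± 0.16). The 2 genes are close paralogs, and reads that aligned to several places were left out of the counting, so the level of each is uncertain. Oasl1, an oligoadenylate synthetase-like protein, had 110, 90 and 33 in CTRL and 192, 92 and 129 in FST (0.92 ± 0.27). Oas3, one of the enzymes that switch on RNase L in virus-infected cells, had 697, 536 and 349 in CTRL and 954, 568 and 810 in FST (0.58 ± 0.15). In each of these genes pair 3 differed most, pair 2 least, and CTRL 3 was the lowest library. Ifi44, Slfn1 and Oas1g, also interferon-induced, had log2 differences of 0.81 ± 0.20, 0.83 ± 0.27 and 0.68 ± 0.19. Without CTRL 3 the differences were 0.50 for Ifi213, 0.43 for Oasl1, 0.38 for Slfn1, 0.47 for Ifi44, 0.35 for Oas1g, 0.42 for Ifi208 and 0.29 for Oas3.

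Outside the interferon list and the families named with it, Cd69, an early activation marker of leukocytes, had 40, 47 and 22 in CTRL and 55, 55 and 63 in FST (0.72 ± 0.25). The groups did not overlap, and Act had 124, 83 and 146. Without CTRL 3 its difference was 0.35. Nedd4, a ubiquitin ligase, had 67, 54 and 27 in CTRL and 89, 71 and 55 in FST (0.60 ± 0.27, and 0.345 without FST 3). Of the 10 genes, 4 were lower and 1 was higher in Act than in Act + FST at an adjusted p of at most 0.05. Over all genes tested, 15.4% were lower and 17.1% were higher. Against CTRL, 1 was lower and 4 were higher in Act at that threshold, beside 2170 and 2338 of the 14318 genes tested. That comparison uses the CTRL libraries on which the 10 were chosen, and CTRL 3 was the lowest of the 6 for all 10.

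The interferon list as a whole lay above 0. All 30 genes listed were tested, and all had a positive log2 difference, from 0.09 (Isg15) to 0.92 (Oasl1), with a median of 0.29. In 3 of 3 pairs 20 were higher and 0 were lower, and 22 were higher at an unadjusted p of at most 0.05, among them Zbp1 (410, 350 and 192 in CTRL, 541, 357 and 434 in FST), Usp18, Irf7, Oasl2 and Ifit1. Over all genes tested, 12.4% were higher in 3 of 3 pairs and 2.7% were higher at that unadjusted p. The lowest of the 6 libraries was CTRL 3 for 25 of the 30 genes. For 1 of the 30 the 3 FST values lay wholly above the 3 CTRL values, beside 2.93% of all genes tested. The pair medians were 0.20, 0.04 and 0.63. Without CTRL 3 the median was 0.14 and 14 genes had an unadjusted p of at most 0.05, and without both libraries numbered 3 the values were 0.14 and 7. In the other 6 libraries, Act + FST minus Act had a median of 0.27 over the list. There 12 of the 30 genes were higher in Act + FST at an adjusted p of at most 0.05, beside 15.4% of all genes tested. For 0 of the 30 did the difference made by FST depend on activin A at an adjusted p of at most 0.05. Over all genes tested, which include those that activin A moves, 16.3% passed. Not passing does not show that the differences were equal, since errors were wide: for Oasl1 (FST minus CTRL) minus (Act + FST minus Act) was 0.42 ± 0.38. Act minus CTRL had a median of 0.15, and Act + FST minus CTRL 0.39, both with the CTRL libraries in common with FST versus CTRL.

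**Figure D4:**
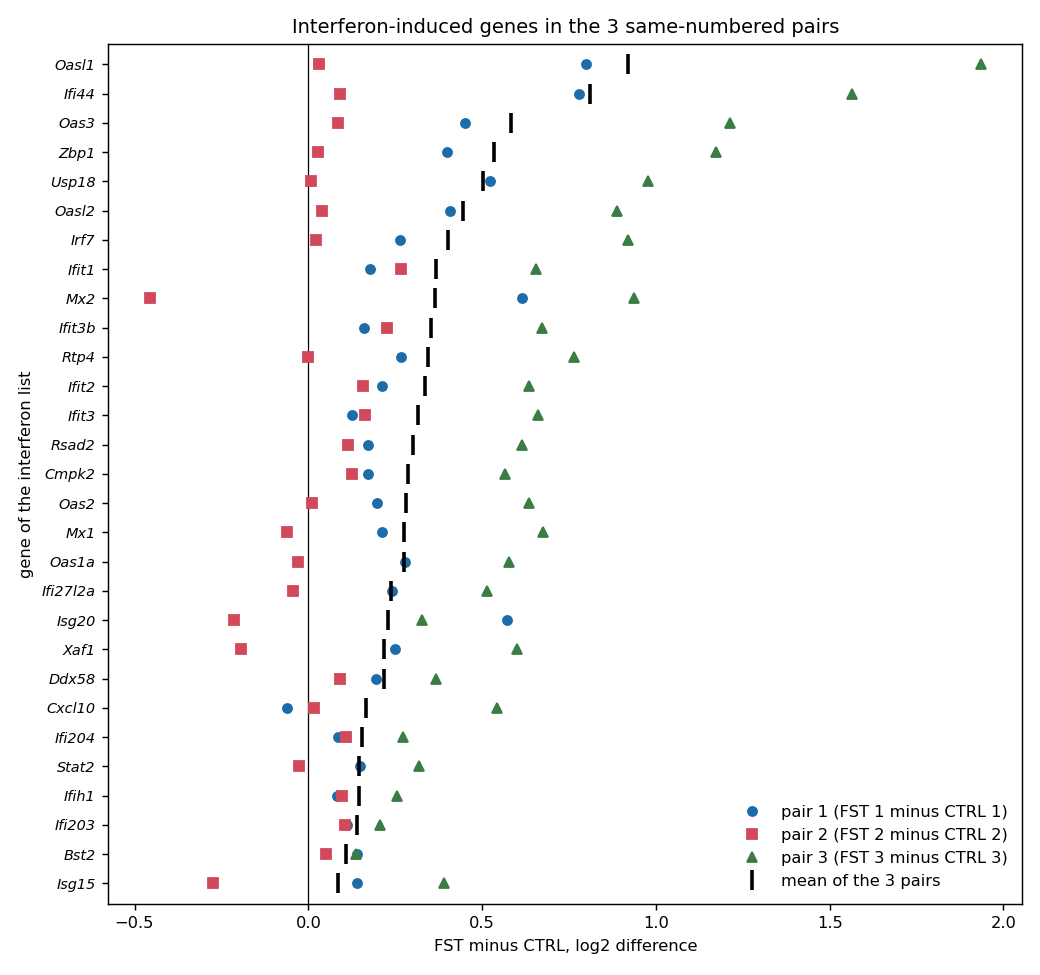
Log2 difference of FST and CTRL (horizontal axis) in each same-numbered pair for genes of the interferon list (vertical axis, ordered by their mean). Symbols are the 3 pairs and the black bar is their mean; pair 3 (triangles) lies farthest to the right for nearly all genes, and pair 2 (squares) lies on either side of 0.

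The genes of sterol synthesis differed little but evenly within pairs. This pathway makes cholesterol from acetyl-CoA and is switched on by SREBP transcription factors when cell sterol is low. All 22 genes in the table were tested. In FST versus CTRL 15 were higher in 3 of 3 pairs and 0 were lower, beside 12.4% and 11.4% of all genes tested. The median log2 difference was 0.12 (0.09 without CTRL 3), and the pair medians were 0.17, 0.09 and 0.15. Relative to each gene's mean over the FST and CTRL libraries, the list's median was 0.16 in CTRL 3, above -0.06 in FST 1 and -0.05 in FST 2. For 0 of the 22 genes did the 3 FST values lie wholly above the 3 CTRL values, beside 2.93% of all genes tested. At an unadjusted p of at most 0.05, 4 were higher, and 2 without CTRL 1. Over all genes tested and with every library, 2.7% were higher by that criterion. Insig1, the sterol-dependent retention factor of the SREBP pathway, had 467, 491 and 615 in CTRL and 548, 548 and 656 in FST (0.16 ± 0.05, adjusted p = 0.842). Dhcr7 and Cyp51, enzymes of the late steps, had log2 differences of 0.21 ± 0.09 and 0.15 ± 0.06, and Stard4, a sterol carrier, 0.11 ± 0.05. Act + FST minus Act had a median of 0.83 over the list. All 22 genes were lower in Act at an adjusted p of at most 0.05, beside 15.4% of all genes tested.

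Among the components of the activin pathway, receptors and SMADs differed little and some low-level ligand and binding protein genes differed more. Inhba, which encodes the activin A subunit, was low, with 7, 4 and 4 in CTRL and 15, 10 and 11 in FST (log2 difference 1.13 ± 0.30, adjusted p = 0.719), and with 7, 7 and 3 in Act and 14, 11 and 8 in Act + FST. Both groups with FST288 lay above both groups without it in every library. Of the 8 ligand genes tested, Gdf15 was the other with an unadjusted p of at most 0.05 (167, 242 and 217 in CTRL, 224, 236 and 258 in FST). Fstl3, a secreted relative of follistatin that also binds activin, had 30, 30 and 45 in CTRL and 46, 42 and 62 in FST (0.51 ± 0.15, adjusted p = 0.767), and 27, 29 and 36 in Act. It was higher in FST in 3 of 3 pairs, with overlap of the groups. Of the 7 binding protein genes tested, which ranged from -0.56 (Ltbp1) to 0.88 (Fstl1, with 5, 8 and 3 in CTRL and 15, 6 and 11 in FST), Bambi, a decoy receptor, lay wholly lower in FST (106, 95 and 90 in CTRL, 89, 82 and 89 in FST, -0.16 ± 0.09, adjusted p = 1). The gene for follistatin itself was not among the genes tested. The activin receptors had log2 differences of 0.02 ± 0.04 (Acvr1b), 0.00 ± 0.07 (Acvr2a) and -0.16 ± 0.12 (Acvr2b), and of the 11 receptor genes tested only the co-receptor Eng had an unadjusted p of at most 0.05 (0.08 ± 0.04). The 5 SMAD transducers lay between -0.06 and 0.03, and the BMP target genes Id2 and Id3 had differences of -0.01 ± 0.05 and 0.13 ± 0.23.

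**Figure D5:**
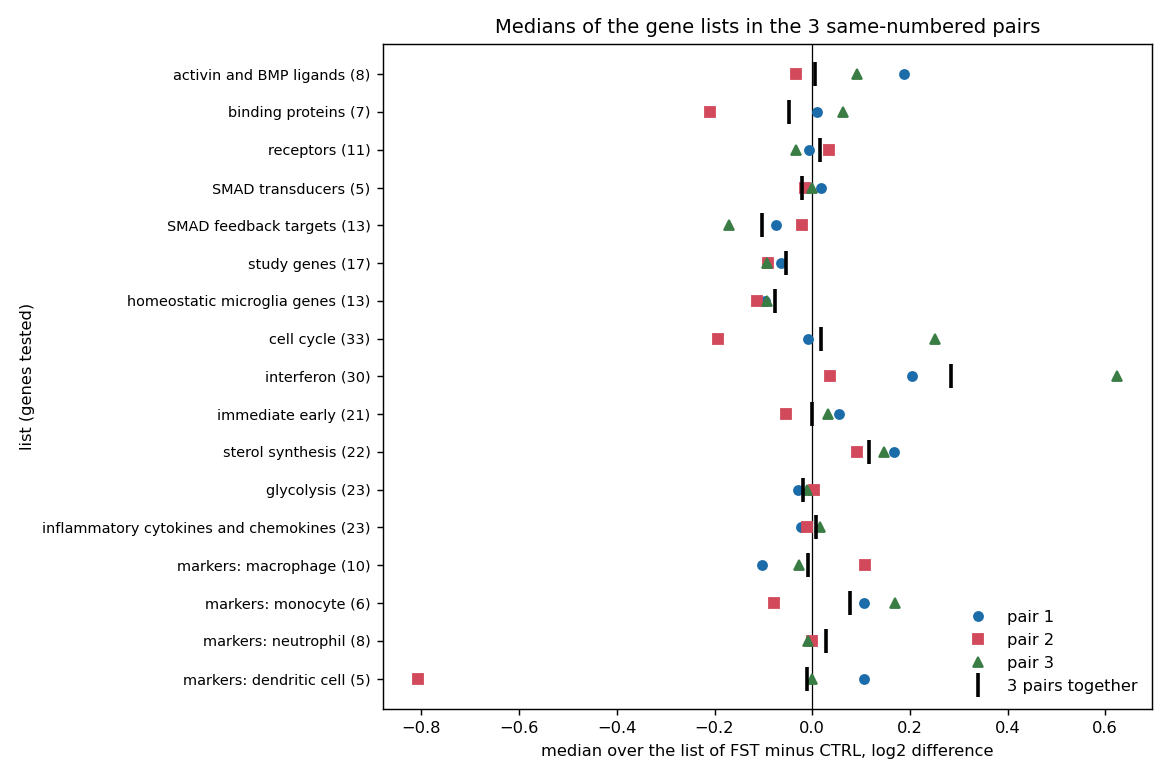
Median log2 difference of FST and CTRL (horizontal axis) over the tested genes of each list with at least 5 of them (vertical axis, number tested in brackets). Symbols give the 3 same-numbered pairs and black bars all 3 together; the interferon and sterol lists lie above 0 in each pair, and the SMAD feedback targets, the genes the study named and the microglia genes lie below 0 in each pair.

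The remaining lists differed less or without 1 direction. Of 13 homeostatic microglia genes tested, 5 were lower in 3 of 3 pairs (11.4% of all genes tested were) and 0 were higher, with a median of -0.08. Beside Olfml3 and Cx3cr1 the members lower in 3 of 3 pairs included Siglech and P2ry13, with differences of -0.21 ± 0.18 and -0.08 ± 0.05. The 33 cell cycle genes had a median of 0.02 with pair medians of -0.01, -0.19 and 0.25, and E2f1 was the single gene with an unadjusted p of at most 0.05 (0.10 ± 0.05). In the glycolysis list that gene was Hk2 (-0.11 ± 0.04), and among 23 inflammatory cytokine and chemokine genes tested they were Il18 (0.16 ± 0.06) and Ccl4 (0.24 ± 0.10). Of the 21 immediate early genes tested and the 4 genes of the sex chromosomes, 0 had an unadjusted p of at most 0.05 by limma, and 0 an adjusted one.

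The exons of some named genes overlap those of a gene on the other strand in GENCODE M21, by 13.1% of exonic bases for Gprc5b, 7.51% for Gm42517, 6.07% for Mtus1, 2.5% for Fn1, 2.34% for Spsb1, 1.73% for Cx3cr1 and 1.46% for Oasl1. The library kit keeps strand, but the strand setting of the counting is not given in the sources used here.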

How the data were processed

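RNA-seq libraries were made from BMDMs with a stranded mRNA kit and sequenced as single-end reads. Per the labels and methods, the authors trimmed reads with Trimmomatic 0.39, aligned them to mm10 with STAR 2.7.9a, counted reads per gene with featureCounts 2.0.2 (reads on several genes or places excluded) and identified their DEGs with DESeq2 1.30.0. The deposited values are normalized counts rounded to whole numbers and were handled as a score, not as read counts, so no count model was run. The formula of the scaling is not given in the sources used here.

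Values were analysed as log2(normalized count + 1) with limma 3.58.1 (trended empirical Bayes) in R 4.3.3, in 1 model of the 12 libraries with 4 group means and replicate number as a block. Genes with a mean of at least 5 were tested, and a called gene differed at least 2-fold with an adjusted p (Benjamini-Hochberg) of 0.05 or less. All differences are on this log2 scale, which understates those of low genes. Adjusted p-values are two-sided limma values over all 14318 genes, and SEs come from the same fit. For a single gene, exact permutation of 3 against 3 libraries cannot go below p = 0.1. Exact sign flips of the 3 pairs cannot go below p = 0.25, so neither was run. Replicate numbers paired the libraries. Deviations from group means correlated at 0.157 to 0.481 in all 18 same-numbered pairs of libraries, and at -0.358 to 0.169 in the other 36. The mean of the latter, -0.155, follows from that of the same-numbered pairs, because deviations cancel out within a group. The comparison was defined by pairing same replicate numbers, and the labels do not say what a number shares. The correlations describe that pairing.

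Named genes were the 10 largest positive and 10 largest negative differences (mean of at least 50, same direction in 3 of 3 pairs, unadjusted p of at most 0.05), the 5 lowest unadjusted p-values, the 10 highest and 10 lowest called genes in Act versus Act + FST (mean of at least 50, groups without overlap), and list members with an unadjusted p of at most 0.05, with pathway members named beside them. Counts with a mean of at least 50 set on the 6 libraries of FST and CTRL were added after seeing the data. The comparison, members and lists were chosen with earlier results of these data known. The scripts were tested on simulated data. Gene coordinates in the table matched GENCODE M21 for 18203 of 18376 genes, and promoter windows were from RefSeq (GRCm38.p6). Figures were drawn with matplotlib 3.10.9. Some listed genes count in the list totals but are not reported singly here.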

Additional observations from a re-analysis of the deposited data

Results flagged for a closer look

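For 14 of the 24 genes named by their difference or p-value in FST versus CTRL, the difference made by FST288 was not the same with and without activin A, by the test of the difference itself (the interaction in limma, adjusted p of at most 0.05 over all genes). Values are (FST minus CTRL) minus (Act + FST minus Act) on the log2 scale. A positive value means that the difference made by FST288 was more negative where activin A was present. They were 4.13 for Olfml3, 3.86 for Pmepa1, 3.48 for Spsb1, 2.59 for Runx3, 2.55 for Mmp2, 2.41 for Pald1, 2.21 for Cx3cr1, 1.28 for Mmp14, 0.92 for Enc1, 0.66 for Mtus1 and 0.30 for Ppp1r9a. Ctnnd2 had -2.78, its value being much lower in Act than in the other groups. Cd69 had 1.56, its value being higher in Act than in Act + FST, and lower in CTRL than in FST. Treml2 had 0.47, with a difference of 0.42 between FST and CTRL and little difference between Act + FST and Act. Over all genes tested, 16.3% passed the same test. The 24 genes were chosen on FST versus CTRL, which is itself a term of this difference. Of the 10 lower genes, 7 had a mean under 50 in the 6 libraries of FST and CTRL and passed only through the libraries given activin A. The choice thus favoured passing genes, and 14 of 24 cannot be weighed against that share. Groups of 3 libraries are too small for a test of single outlying samples.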

How the results depend on the processing

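No alternative gave a called gene in FST versus CTRL: 0 higher and 0 lower with pseudocounts of 0.5 and 5, with no filter, with a mean of at least 50, after quantile normalization or TMM scaling, with only the 6 libraries (lowest adjusted p 0.0592), without any 1 library, at a fold of 1.5, and by adjusted p alone. The pairing entered as the block; with no replicate block the counts were 0 and 0, the lowest adjusted p was 1, and the medians of the activin A genes were -0.147 and 0.094 and that of the interferon list 0.285, as with it. The medians cannot change with the block, since every group holds each replicate number once. The block changed no call, and the counts at an unadjusted p that it moved by over 1.5 times stand beside them above. Leaving out 1 library leaves 2 pairs, so genes with the same direction in every pair numbered 3046 to 3861 (higher) and 3026 to 3882 (lower), against 1772 and 1631 in 3 pairs, by construction. Without both libraries of a number, chosen after seeing the data, they were 3308 and 3234 (number 1), 3861 and 3882 (number 2) and 3046 and 3026 (number 3). Without 1 library, the median of the genes higher in Act ranged from -0.195 to -0.108, that of the genes lower in Act from 0.045 to 0.183, and that of the interferon list from 0.136 to 0.389. All 595 alternative values of 35 named genes stayed on their side of the threshold. This follows from no gene being called in any fit and does not measure how stable the differences were. Cav1, Tmem119, Pimreg, Kntc1, Tox2, Tslp, Gm42517 and Gm10419, with differences near 0 or wide errors, changed sign without 1 or another library. With a mean of at least 50 in the 6 libraries, chosen after seeing the data, the 2 activin A medians were -0.143 and 0.092. The cause of these shifts was not tested. With 3 libraries a group, differences of 2-fold and more could be missed in genes of wide spread, such as Olfml3 (-2.52, adjusted p = 0.722 by limma).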
